A study of Chlamydomonas reinhardtii with 16 samples.

Results

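The transcript levels of the hmox1 mutant of the green alga Chlamydomonas reinhardtii were compared with those of its wild type, strain 4A+, after light and in the presence of biliverdin. Cultures of both strains were kept dark on acetate with 0.5% methanol and 0.1 mM biliverdin IXα (BV), and were then exposed for 30 min to white light at a photon flux of 150 µmol per m2 and s. RNA was sequenced from 2 libraries per strain. The genes described are those at 1 RPKM or more (reads scaled to the length of the gene and to the reads of the library) in at least 2 of these 4 libraries, which were 12052 of the 17301 genes in the table. At the edge of this rule, the second highest library was at 1.0005 RPKM for Cre08.g384250, just inside, and at 0.99937 RPKM for Cre13.g578850, just outside.

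The other 12 libraries of the study form 6 groups of 2, namely each strain in the dark with BV, in the dark without BV and in the light without BV, all with methanol in the medium. They served for 3 further comparisons of the strains, and no comparison of strains shares a library with another. The labels call the mutant hmox1 and give neither the kind of allele nor the number of clones. Nothing in them tells whether the paired libraries of a group are from separate cultures, so the p-values reflect library-to-library spread alone and this may be technical. In total RNA of a culture, a change in each cell and a change in a fraction of the cells cannot be told apart.

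Heme oxygenase opens the ring of heme and yields biliverdin, the first of the bilins, which ferredoxin-dependent reductases in chloroplasts turn into other linear tetrapyrroles. In plants and many algae bilins serve as chromophores, for example of phytochromes, and Chlamydomonas has no phytochrome. BV in the medium of a heme oxygenase mutant supplies the product that the enzyme would make. The series addresses retrograde signalling, in which the state of the chloroplast alters the use of genes in the nucleus, during the greening of dark-grown cells. The comparison with BV in the light shows which strain differences are found when both strains have had BV in their medium.

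Genes are named by their identifiers, because neither the deposited table nor the RefSeq table used here pairs these with gene symbols. The transcript of the mutated gene was therefore not identified, so that the strain labels were not checked on it. For the same reason no function is given for any gene below. Reads could be shared between close copies or overlapping genes, and the use of strand in counting is not stated in these sources.

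The wild type libraries held 22034071 and 24868766 reads in genes, and the hmox1 libraries 15995930 and 25458361. At these depths, 3 reads in a gene of 2 kb equal 0.0589 to 0.0938 RPKM. The 2 wild type libraries in the light with BV stood apart from every other pair. Their median standard deviation over the 12052 genes was 0.129 on the log2 scale, against 0.052 to 0.077 in the other 7 groups. The median gene was lower in replicate 1 than in replicate 2 by 0.16 (log2). The test gave these libraries a weight of 0.37, against 0.862 to 1.68 for the other groups, and results are given below without either of them where that moves a count by more than 1.5-fold.

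Many small differences, most of them to the side of higher levels in hmox1, made up the comparison. At adjusted p under 0.05 (limma on log2(RPKM + 1), Benjamini-Hochberg over the 13972 genes tested), 5180 genes were higher in hmox1, beside 42.2% of all genes tested, and 925 were lower, beside 6.78%. Of these, 607 were at least 2-fold higher, beside 4.35% of all genes tested, and 91 at least 2-fold lower, beside 0.651%. At 4-fold or more, 45 were higher and 11 lower. The median strain difference was 0.29 (log2) over the 12052 genes and also over all genes tested, so that the typical gene was itself higher in hmox1 on the authors' scale. Counted from that median, 240 genes lay at least 1 log2 unit above it and 206 at least 1 log2 unit below it. No share over all genes tested was counted for the 4-fold calls or for these distances from the median.

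The split between higher and lower depended on the scaling. With trimmed mean (TMM) factors the median fell to -0.02, and 2730 genes were called higher and 3356 lower. With quantile scaling the median was 0.00, and 2706 were called higher and 2711 lower. Higher calls thus made up 84.8% of all calls on the authors' scale, 44.9% with TMM factors and 50.0% under quantile scaling. The calls numbered 6105 in both directions together, beside 49.0% of all genes tested. Without wild type replicate 1 there were 3103, 2443 of them higher. Without wild type replicate 2 the lower calls numbered 515. The number of genes called and at least 2-fold apart rose from 698, beside 5.00% of all genes tested, to 1760 with a pseudocount of 0.1 RPKM, since 1 RPKM damps the fold of genes of low level, and to 1874 with voom on the recovered reads. It was 349 with quantile scaling.

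Cre13.g606650 had the largest rise among genes that met the rule for named genes. Its level in the light with BV was 18.5 and 20.3 RPKM in the 2 hmox1 libraries and 0.281 and 0.27 RPKM in the 2 wild type libraries. The strain difference was 4.00 ± 0.15 (log2, SE; adjusted p = 5.7e-11, limma). In the other 6 groups hmox1 lay between 15.7 and 19.8 RPKM and wild type between 0.292 and 0.782 RPKM, so that neither light nor BV brought the strains near each other.

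Cre12.g546550 was the next. It stood at 76.2 and 76.5 RPKM in hmox1 and at 5.398 and 4.901 RPKM in wild type, a difference of 3.65 ± 0.12 (log2, SE; adjusted p = 4.3e-12, limma). This gene was lower in light than in the dark in both strains, at 48.5 and 48.9 RPKM in lit hmox1 without BV against 97.4 and 101 RPKM in the dark. The gap between the strains was 3.21 to 3.65 (log2) in all 4 conditions. The 2 tests of whether it differed between conditions were not passed (adjusted p = 0.2 against light without BV and 0.33 against dark with BV, limma).

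Cre03.g204200 had the largest fall. It had 386 and 422 reads in the wild type libraries, or 24.3 and 23.5 RPKM, and no read in either hmox1 library. With a floor of 3 reads over the hmox1 group, its level was at least 238-fold lower in hmox1. The fitted difference was -4.64 ± 0.13 (log2, SE; adjusted p = 1.3e-12, limma). It was also at 16.8 to 32.0 RPKM in the wild type and at or below 0.146 RPKM in hmox1 in every other library. On log2(RPKM + 1) its strain difference was more negative in the light than in the dark with BV, by -0.55 ± 0.16 (log2, SE; adjusted p = 0.015, limma). Wild type had means of 23.88 RPKM in the light and 17.58 RPKM in the dark with BV. As hmox1 had no read in the light and a mean of 0.09 RPKM in the dark, the fold between the strains could not be compared.

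Cre03.g187150 followed, at 11.96 and 14.58 RPKM in wild type and 0.426 and 0.195 RPKM in hmox1. Its difference was -3.44 ± 0.15 (log2, SE; adjusted p = 1.9e-10, limma). The ranges of the strains did not overlap in any condition.

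**Figure D1:**
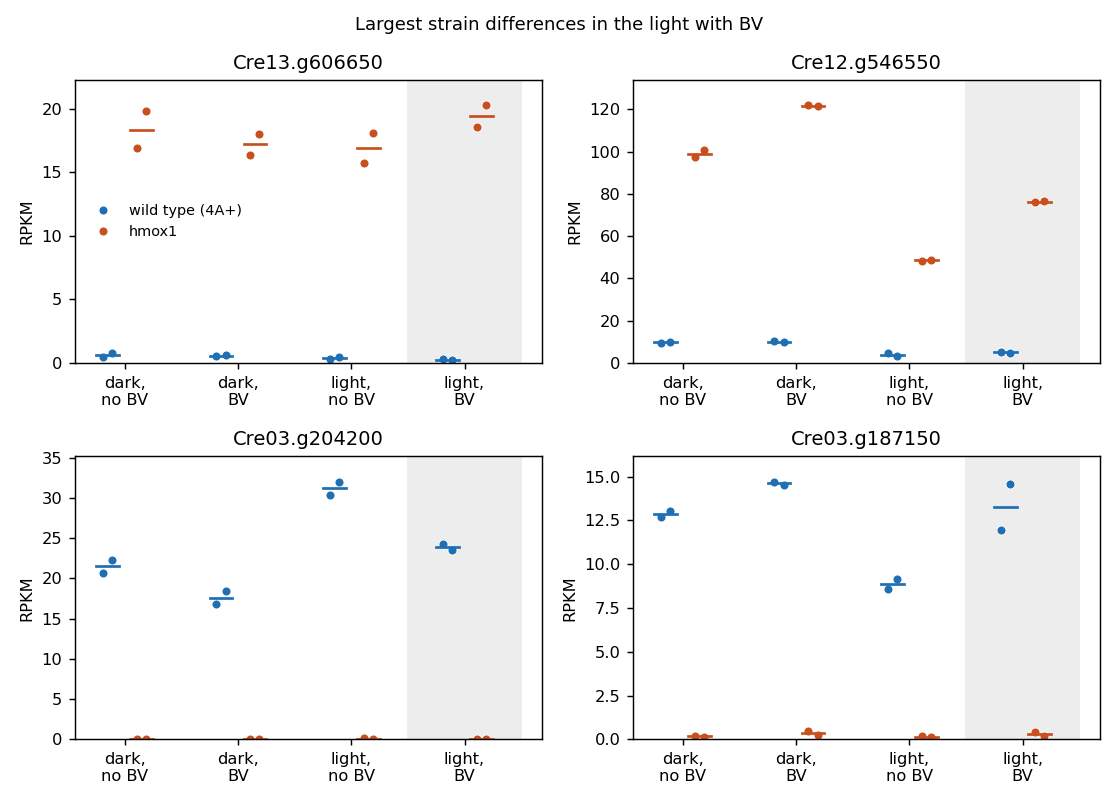
Level in RPKM (vertical axis, linear, from 0) of the genes with the largest rises (Cre13.g606650, Cre12.g546550) and falls (Cre03.g204200, Cre03.g187150) in hmox1, for wild type (blue) and hmox1 (orange) in 4 conditions. Points are the 2 libraries of a group, bars their mean, and the light with BV is shaded; the libraries of the strains do not overlap in any of the 4 conditions.

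The sets of 12 genes with the largest rises and falls were mostly called in the other conditions too. All 12 of the largest rises (2.59 to 4.00 log2) were also called higher in the light without BV, in the dark with BV and in the dark without BV. Of the 12 largest falls (-4.64 to -1.88 log2), 11 were called lower in all 4 comparisons. On log2(RPKM + 1) the size of the difference still changed for some of them. By the test against the light without BV it was larger with BV for 2 of the 12 rises (shifts of 0.69 and 0.87). The same held for 3 of the 12 falls (shifts of -2.03 to -1.13). By the test against the dark with BV the size differed for 4 of the rises and 2 of the falls. The shift of 0.87 was that of Cre03.g180450. In the light its hmox1 mean was 19.42 RPKM with BV and 6.285 RPKM without, and its wild type mean 1.307 and 0.4695 RPKM. With wild type so near the added 1 RPKM, a larger fold with BV is not shown for this gene. Both sets were picked by their difference in the light with BV, so both tests lean toward a larger difference there. The 12 and 12 genes were drawn from 2667 and 799 genes that met the rule for named genes. Cre10.g452250, one of the rises, had 529 reads in hmox1 and 1 read in wild type, a ratio of 598.5 with a 95% counting interval of 107 to 23700.

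Very short genes gave some of the largest fitted values without passing the test. Cre02.g102200 and Cre35.g784050, named after their values were seen, have recovered lengths of 3 and 5 nt. Their differences of 4.13 ± 2.26 and -4.46 ± 2.08 (log2, SE) rest on 1 read in each hmox1 library for the first and on 2 and 3 reads in the wild type libraries for the second. Their adjusted p were 0.16 and 0.11 (limma).

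Many genes were called in the same direction in all 4 comparisons, which does not mean that their difference was of equal size. Of the 12052 genes, 1694 were called higher in hmox1 in all 4 (over all genes tested, 13.0% were) and 199 lower (1.48%). On log2(RPKM + 1) the size of the difference changed with BV in the light or with light for 456 of the 1694 and 68 of the 199, by the tests of these differences. With at least a 2-fold difference in each comparison, 123 were higher (0.880%) and 25 lower (0.179%). The count of 1694 became 666 under TMM and 784 under quantile scaling, and that of 199 became 648 and 576. At 2-fold, the 123 became 83 and 74, and the 25 became 43 under either scaling. Without wild type replicate 1 in the light with BV, the counts were 1163 and 166.

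Some genes that differed 2-fold in all 4 conditions lay near each other. Of the 123 higher and 25 lower genes of this kind, 104 could be placed in the gene order of the RefSeq assembly. Of these, 8 lay within 2 places of another that differed in the same direction, as 4 pairs, and all 8 were higher in hmox1. Whether this is more or fewer than for genes placed at random was not tested. In one pair Cre16.g657200 was higher by 1.24 and Cre16.g657250 by 1.70 (log2) in the light with BV, and by 1.80 to 2.71 in the other conditions. In a second, Cre17.g717900 and Cre17.g717950 were higher by 1.74 and 1.87 in the light with BV and by 1.42 to 2.27 in the other conditions. At 4-fold in all 4 conditions there were 15 placed genes and no pair among them. Cre13.g606650, the largest rise above, could not be placed, so a pair with it could not be counted. Cre13.g606675, close to it by identifier, was higher by 3.33 (log2) in the light with BV and by 2.64 to 3.07 in the other conditions.

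Across the 17 chromosomes the strain difference varied little. Of the 12052 genes 9312 could be placed, and the median difference per chromosome ran from 0.25 to 0.33 (log2). The share of genes called and at least 2-fold apart ran from 4.21% to 8.41% per chromosome. Of the 56 genes called at 4-fold or more, 37 could be placed, with at most 5 higher and 2 lower ones on any chromosome.

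More of the calls in the light with BV were shared with the light without BV than with the dark. Without BV in the light, 7030 of the 12052 genes (58.3%) were called higher in hmox1, beside 57.1% of all 13972 genes tested, and 1220 (10.1%) lower, beside 9.02%. In the dark with BV 4746 (39.4%) were higher, beside 36.2% of all genes tested, and 1581 (13.1%) lower, beside 14.9%. In the dark without BV 3473 (28.8%) were higher, beside 26.9%, and 940 (7.80%) lower, beside 8.55%. Of the 5180 genes higher with BV in the light, 4610 (89% of them, and 65.6% of the 7030) were also called higher without BV, and 20 were called lower. Of the 925 lower genes, 565 (61.1% of them, and 46.3% of the 1220) were also called lower without BV, and 87 were called higher. The shares called in the same direction in the dark with BV were smaller, at 52.3% of the higher and 37.9% of the lower genes. None of these shared percentages was recounted without either wild type library in the light with BV.

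As a description across genes, which are not independent replicates, the strain differences with and without BV in the light had a Pearson r of 0.71 (Spearman's rho 0.71). The r was 0.47 (rho 0.32) with the strain difference in the dark with BV and 0.49 (rho 0.33) with that in the dark without BV. Called in the light with BV and in none of the other 3 comparisons were 268 higher and 91 lower genes. The same count over all genes tested was not made. A difference from the light without BV was itself called for 19 of the 268 and 17 of the 91, so that most are not shown to be particular to the light with BV.

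The strain difference in the light differed with BV for a minority of genes, more of them to the negative side. The strain difference with BV was more negative than without BV for 569 of the 12052 genes (4.72%), beside 4.20% of all genes tested, and more positive for 215 (1.78%), beside 1.62%. In the group of 569 the median difference was 0.68 (log2) without BV and -0.10 with BV. Of these 569 genes, 472 were called higher in hmox1 without BV, and 253 of the 472 were called in neither direction with BV. In the group of 215 the median was -0.01 without BV and 0.69 with BV, and 47 genes were called lower without BV and in neither direction with it. Both groups were picked by this shift, which fixes the direction between their medians in advance.

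These counts rested strongly on the wild type libraries in the light with BV. Without replicate 1 they were 304 and 37, and without replicate 2 they were 276 and 248. The 215 became 128 without wild type replicate 2 in the light without BV, 117 without hmox1 replicate 1 in the light without BV and 136 without hmox1 replicate 2 in the light with BV. TMM gave 770 more negative and 608 more positive, and quantile scaling 671 and 426.

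**Figure D2:**
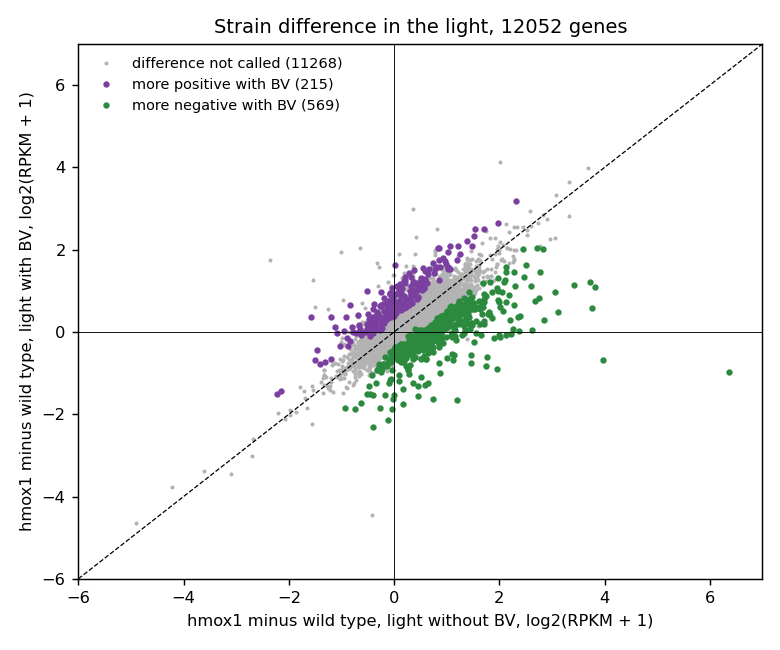
Strain difference (hmox1 minus wild type, log2(RPKM + 1)) of 12052 genes in the light with BV (vertical) against the light without BV (horizontal). Each point is a gene, the dashed line marks equal differences, and colour marks the 215 genes whose difference was more positive with BV (purple) and the 569 whose difference was more negative (green); the point farthest right is Cre02.g137700.

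Cre16.g652200 showed the largest shift to the negative side among genes that met the rule for named genes. In wild type it was at 0.596 and 0.741 RPKM in the light without BV and at 11.5 and 14.0 RPKM in the light with BV, while the 4 lit hmox1 libraries lay between 2.74 and 3.35 RPKM. The strains thus changed order, with hmox1 higher by 1.19 ± 0.09 without BV and lower by 1.66 with BV (log2 difference -1.66 ± 0.13). The difference between the 2 was -2.86 ± 0.16 (log2, SE; adjusted p = 6.6e-09, limma). In the dark, wild type was at 1.55 to 1.85 RPKM and hmox1 at 3.61 to 4.08 RPKM whether or not BV was present.

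Cre04.g215300 crossed over in both strains. Lit wild type was at 4.38 and 4.55 RPKM without BV and at 16.6 and 15.1 RPKM with BV, whereas lit hmox1 was at 19.9 and 20.3 RPKM without and at 8.51 and 7.64 RPKM with BV. The strain difference was 1.95 ± 0.07 without and -0.89 ± 0.11 with BV, and the difference of the 2 was -2.85 ± 0.13 (log2, SE; adjusted p = 5e-10, limma). In the dark the strains lay close together, at 11.2 to 13.6 RPKM in all 8 libraries.

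Cre06.g270475 had the largest shift to the positive side. Wild type was at 27.9 and 27.3 RPKM in the light without BV and at 3.19 and 6.67 RPKM with BV. In hmox1 it was at 26.2 and 30.0 RPKM without and at 15.5 and 17.3 RPKM with BV. The strains overlapped without BV and did not with BV. The strain difference was 1.59 ± 0.30 (log2, SE) more positive with BV (adjusted p = 0.0091, limma). Without wild type replicate 1 it was 1.16 and missed the threshold (adjusted p = 0.061), and with only the groups compared in the fit the adjusted p was 0.054.

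Cre03.g185250 changed order in this direction. It was at 16.9 and 28.2 RPKM in wild type and at 38.0 and 52.2 RPKM in hmox1 with BV, and at 43.7 and 44.6 RPKM in wild type against 27.7 and 33.6 RPKM in hmox1 without BV. The difference was 1.51 ± 0.27 (log2, SE; adjusted p = 0.0058, limma), and the adjusted p was 0.064 with only the groups compared in the fit.

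**Figure D3:**
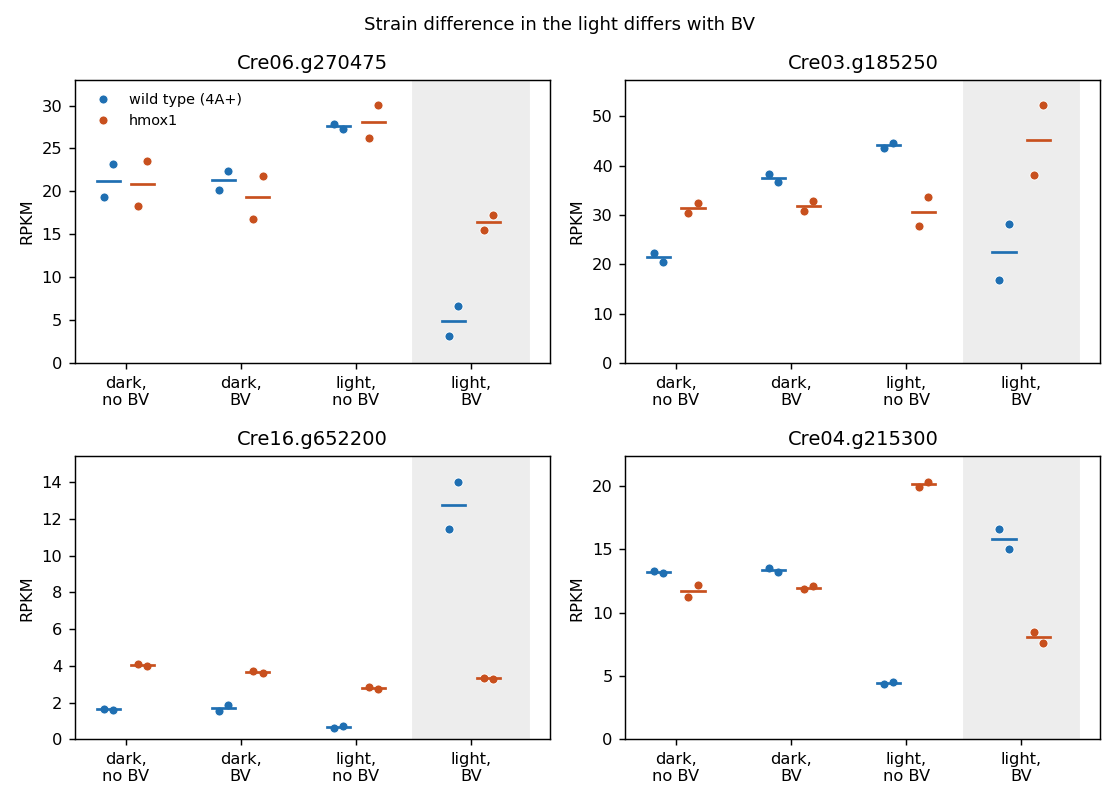
Level in RPKM (vertical axis, linear, from 0) of 4 genes whose strain difference in the light differed with BV, for wild type (blue) and hmox1 (orange). Points are libraries, bars the mean of 2, and the light with BV is shaded; the order of the strains is turned between light with and without BV for Cre16.g652200, Cre04.g215300 and Cre03.g185250.

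The gene with the largest shift of all was Cre02.g137700, which was named after its values were seen because its level with BV was below the 5 RPKM that the rule asks for. Lit hmox1 without BV held 131 and 136 RPKM, while wild type held 0.822 and 0.461 RPKM. With BV in the light hmox1 held 0.642 and 0.908 RPKM and wild type 2.64 and 2.29 RPKM. The difference of the strain differences was -7.33 ± 0.19 (log2, SE; adjusted p = 4e-13, limma). All 8 dark libraries were at or below 0.505 RPKM, so that a high level was found only in lit hmox1 without BV.

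The turn of order seen for these genes was counted across all. Called higher with BV and lower without were 20 genes (0.143% of all genes tested), and called lower with BV and higher without were 87 (0.623%). Each of the 20 and of the 87 also passed the test of the difference, which such opposite calls all but ensure. Only 1 of the 87 was at least 2-fold apart in both. The counts were 3 and 47 without wild type replicate 1, and 44 and 46 without wild type replicate 2. The larger group, lower with BV, numbered 93 under TMM and 104 under quantile scaling, and the smaller numbered 50 and 37.

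Cre02.g097950 is an example of the 20. Wild type was at 24.8 and 25.2 RPKM in the light without BV and at 2.49 and 4.08 RPKM with BV, and hmox1 at 12.9 and 14.0 RPKM and at 5.50 and 5.73 RPKM. The level was lower with BV in both strains, with the wider range in wild type, and the shift of the strain difference was 1.5 ± 0.18 (log2, SE; adjusted p = 5.2e-05, limma). Cre12.g517700 had a like course, from 41.1 and 41.8 RPKM to 6.65 and 9.42 RPKM in wild type and from 34.0 and 35.1 RPKM to 15.6 and 17.2 RPKM in hmox1. In the dark this gene was at 18.0 and 18.2 RPKM in wild type with BV but at 4.93 and 5.47 RPKM without, and at 4.22 to 4.85 RPKM in hmox1 in either case.

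Of the 87, Cre13.g566850 had the widest range of levels among those printed. Lit hmox1 was at 160 and 156 RPKM without BV and at 8.04 and 7.21 RPKM with BV, and lit wild type at 44.3 and 47.0 RPKM and at 10.01 and 14.77 RPKM. The strain difference went from 1.77 ± 0.12 to -0.61 ± 0.17, a shift of -2.38 ± 0.20 (log2, SE; adjusted p = 1.5e-06, limma). Cre04.g215250 repeated at a lower level the course of Cre04.g215300, with wild type at 1.38 and 1.36 RPKM without BV and 5.08 and 5.67 RPKM with BV, and hmox1 at 6.87 and 7.02 RPKM without and 2.86 and 2.37 RPKM with BV.

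The strain difference in the light with BV followed the gene's response to light. Genes were sorted by their change after light in wild type without BV, in libraries that take no part in the comparison described. The 3280 genes that fell at least 2-fold after light had a median strain difference of 0.56 (log2) in the light with BV, and 70.8% of them were called higher in hmox1 and 2.77% lower. The 1292 genes that rose at least 2-fold had a median of -0.17, and 8.36% were called higher and 30.5% lower. The 7480 genes within 2-fold lay between them, with a median of 0.24 and 36.8% higher and 5.88% lower. Most genes of the falling class were thus higher in lit hmox1 than in lit wild type, and among rising genes lower calls outnumbered higher ones.

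The median strain difference stepped down from the strongest fall after light to the strongest rise. Genes that fell 4-fold or more had a median of 0.68 and those that fell 2- to 4-fold 0.54. Genes that rose 2- to 4-fold had a median of -0.12 and those that rose 4-fold or more -0.23. Sorting by the change in hmox1 without BV gave the same order, from 0.86 for a fall of 4-fold or more to -0.21 for a rise of 4-fold or more. In the light without BV, the medians over the wild type classes were 0.67, 0.55, 0.26, -0.13 and -0.32, from strongest fall to strongest rise. Over the hmox1 classes they were 0.49, 0.55, 0.3, -0.09 and -0.26, where the strongest fall did not have the largest median. The wild type and hmox1 classes share libraries with that comparison. The step from positive to negative medians is thus not shown to be particular to the light with BV.

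In the dark with BV the classes did not stand in this order. Genes that fall after light had a median strain difference of 0.05 there and genes that rise 0.22. The difference between light and dark was itself tested over all genes. Of the 3280 falling genes, 53.9% had a more positive strain difference in the light than in the dark with BV and 0.762% a more negative one, and of the 1292 rising genes 4.49% and 47.5%.

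The pattern was present against each library. With either wild type library alone the median was 0.49 or 0.61 for falling genes and -0.27 or -0.05 for rising genes, and with either hmox1 library alone 0.54 or 0.57 and -0.16. Relative to the median of the 12052 genes, falling genes were at 0.27 and rising genes at -0.46 on the authors' scale, at 0.31 and -0.51 with TMM, and at 0.19 and -0.33 with quantile scaling.

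**Figure D4:**
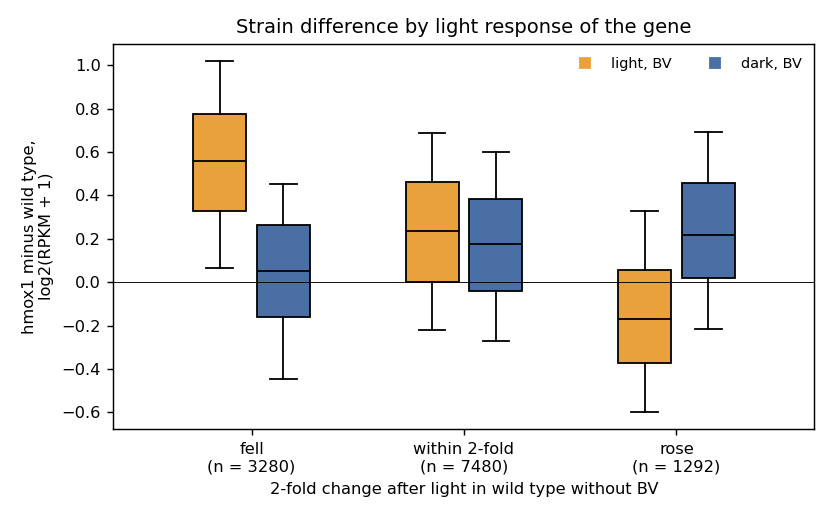
Strain difference (hmox1 minus wild type, log2(RPKM + 1), vertical axis) with BV in the light (yellow) and in the dark (blue), for genes sorted by their 2-fold change after light in wild type without BV. Boxes span the middle 50% of genes with the median as a line and whiskers the 10th to 90th percentiles; the light boxes step down from falling to rising genes (medians 0.56, 0.24 and -0.17) and the dark boxes do not (0.05, 0.17 and 0.22).

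Over all genes, the strain difference with BV differed between light and dark for 33.3% of the 12052 genes. It was more positive in the light for 2697 genes (22.4%), beside 23.9% of all genes tested, whose median was -0.06 in the dark and 0.60 in the light. It was more negative for 1319 genes (10.9%), beside 9.64%, with medians of 0.44 in the dark and -0.20 in the light, and 1033 of these were called higher in the dark while 512 were called lower in the light. As the 2697 and the 1319 were picked by this shift, the direction between their medians was fixed in advance. The 2697 became 1003 without wild type replicate 1, the 1319 became 811 without wild type replicate 2, and TMM gave 1975 and 2818.

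Cre10.g424550 had the largest shift to the positive side. In the dark with BV it was at 213 and 179 RPKM in wild type and at 74.6 and 76.3 RPKM in hmox1. After light it was at 3.25 and 5.96 RPKM in wild type and at 18.0 and 23.4 RPKM in hmox1. The level was lower in the light in both strains, and the strains changed order. The strain difference went from -1.36 ± 0.28 to 1.99 ± 0.43, a shift of 3.35 ± 0.52 (log2, SE; adjusted p = 0.0016, limma).

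Cre10.g424583 took the same course at a higher level. It was at 407 and 364 RPKM in wild type and 148 and 151 RPKM in hmox1 in the dark with BV, and at 6.47 and 11.1 RPKM against 29.1 and 39.0 RPKM in the light. Its shift of 3.23 ± 0.66 (log2, SE; adjusted p = 0.0071, limma) was 2.88 without wild type replicate 1, where it missed the threshold (adjusted p = 0.059).

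Cre13.g569400 was higher in the light in both strains, with the wider range in wild type. It was at 1.79 and 1.40 RPKM in wild type and 4.88 and 4.39 RPKM in hmox1 in the dark with BV, and at 50.6 and 57.6 RPKM against 20.4 and 21.4 RPKM in the light. Its strain difference was 1.12 ± 0.16 in the dark and -1.33 ± 0.25 in the light, a shift of -2.45 ± 0.29 (log2, SE; adjusted p = 7.7e-05, limma). Cre16.g652200, described above, had a shift of -2.45 ± 0.16 between dark and light with BV (log2, SE; adjusted p = 3.1e-08, limma). Its level in wild type was highest in the light with BV.

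**Figure D5:**
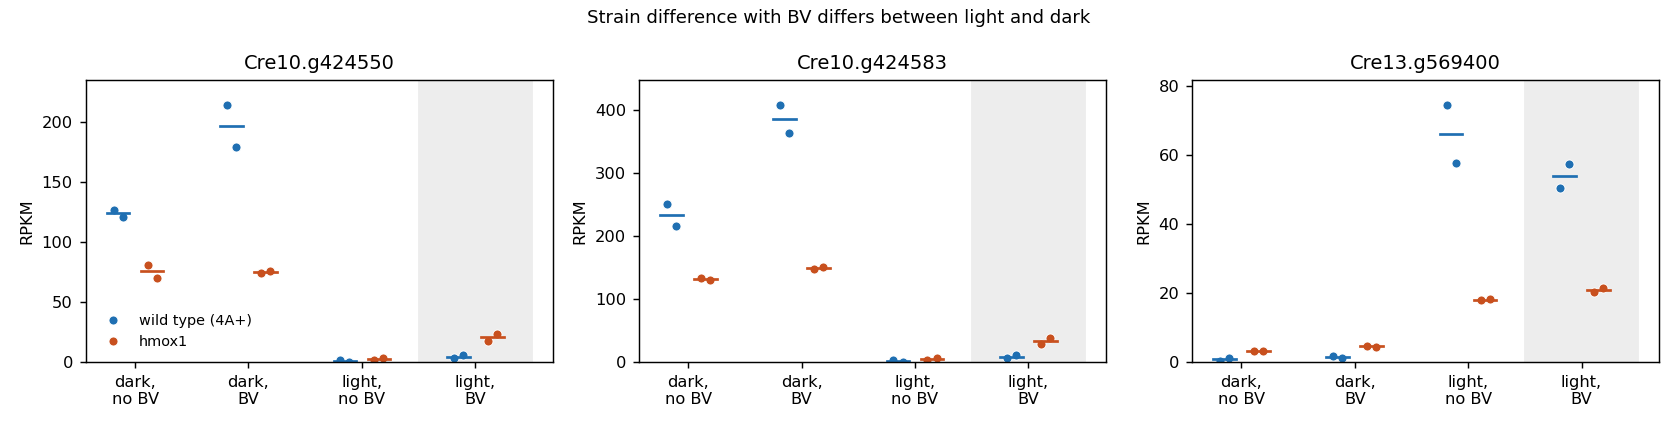
Level in RPKM (vertical axis, linear, from 0) of 3 genes whose strain difference with BV differed between dark and light, for wild type (blue) and hmox1 (orange). Points are libraries, bars the mean of 2, and the light with BV is shaded; wild type lies above hmox1 in the dark and below it in the light with BV for Cre10.g424550 and Cre10.g424583, and the reverse holds for Cre13.g569400.

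The strain difference also varied with the level of the gene. Genes were sorted by their mean RPKM in the other 12 libraries. The 1510 genes under 2 RPKM and the 5990 genes at 2 to 10 RPKM had a median of 0.34 each, and the 3847 genes at 10 to 100 RPKM and the 571 at 100 to 1000 RPKM had 0.19 each. The 134 genes at 1000 RPKM or more had a median of -0.16, with 28 called higher and 31 lower. These 134 genes held 45.1% and 38.4% of the reads in genes of the wild type libraries and 37.7% and 36.9% of those of hmox1, so that wild type replicate 1 gave the most reads to the most abundant genes. The part of this share in the strain differences of the other genes was not tested. By length of the gene the medians ran from 0.27 to 0.34 with no such step.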

How the data were processed

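RNA was sequenced as single-end reads of 100 nt, per the labels' protocols, and Bowtie was used, per the submitters' processing notes. Its version, the counter, the strand setting, the genome build and the annotation are not given in these sources, so no coordinates are printed. The authors deposited 1 table of RPKM for 17301 genes and 16 libraries. Its header names no unit, which was taken from the values: each is a whole multiple of what 1 read is worth in that gene and library. No other column of sample values was left aside (0).

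From these steps the length of each gene and its whole reads were recovered for 16852 of the 16852 genes above 0, within 0.1 reads (largest distance 0.083). Libraries held 10213543 to 43414778 reads in genes. Tested on simulated data, the recovery returned 99.43% of 16765 genes. Counting error is all that floors and intervals cover.

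The test took genes reaching 1 RPKM in 2 or more of all 16 libraries (13972, all 12052 described genes among them) and used limma 3.58.1 in R 4.3.3 on log2(RPKM + 1). The fit had 8 group means, 8 residual degrees of freedom, a mean trend, robust moderation and 1 weight per group, and p-values were adjusted by Benjamini-Hochberg in each of 6 comparisons. Log2 differences on this scale understate the change of low genes. Tested on simulated data for this comparison over 13899 genes, the fit called 51% of the 1.5-fold changes and 91% of the 2-fold changes, with 3 false calls. With equal weights these were 64%, 96% and 14. The simulation changed few genes and drew the noise of each gene independently. In the real data many genes were called and the 2 wild type libraries were shifted against each other. The number of false calls therefore does not carry over to the real calls.

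Named genes were called at adjusted p under 0.05, did not overlap between the strains in the light with BV, had at least 5 RPKM and 20 reads per library in the higher group and a length of at least 200 nt. The 12 largest per direction in the main comparison and 6 in each test of a difference were taken, and as the genes have no names, 2 per direction are printed. The same criteria chose the genes whose order turned. The 14 gene lists drawn up by symbol found 0 members and are not reported. Of the 17301 identifiers, 12666 (73.2%) were found among the locus tags of RefSeq's Chlamydomonas_reinhardtii_v5.5 assembly, and this table was used only for gene order and chromosome. The genes described, the lists and the tests were chosen with earlier results of these data known. Alternatives were other weights, groups in the fit, scalings, pseudocount, filters, trend, voom on the recovered reads, a replicate block and each library left out.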

Additional observations from a re-analysis of the deposited data

Results flagged for a closer look

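The strain difference in the light differed with BV for 784 genes and the strain difference with BV differed between light and dark for 4016 genes, each by a test of the difference itself. The printed genes that passed the first test did so by 1.59 for Cre06.g270475, 1.51 for Cre03.g185250, 1.5 for Cre02.g097950 and 1.22 for Cre12.g517700 to the positive side (log2). To the negative side they did so by -2.86 for Cre16.g652200, -2.85 for Cre04.g215300, -2.57 for Cre04.g215250 and -2.38 for Cre13.g566850. The printed genes that passed the second test did so by 3.35 for Cre10.g424550, 3.23 for Cre10.g424583, and -2.45 for both Cre16.g652200 and Cre13.g569400.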

How the results depend on the processing

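Of 272 values of printed genes under the alternatives, 268 kept their direction and their side of the threshold. The other 4 kept their direction and missed it, all given with the genes above. The counts by direction depended on scaling. Under TMM they were 2730 higher and 3356 lower in the light with BV, 3192 and 3802 in the light without BV, 2521 lower in the dark with BV, and 1984 and 1524 in the dark without BV. The tests of a difference gave 1378 genes against light without BV, 608 of them more positive, and 2818 more negative against dark with BV, and the median strain difference turned to -0.02. Under quantile scaling the same counts were 2706 and 2711, 2909 and 2836, 2495, 2052 and 1722, 426 more positive and 2228 more negative. A pseudocount of 0.1 left 111 genes more positive against light without BV. A filter at 5 RPKM left 3397 higher and 1769 more positive against the dark, where fewer genes were tested. Voom gave 867 more negative against light without BV. Fold 2 in place of 4 raised the called and placed genes along the chromosomes from 37 to 503. The cause of the other changes was not tested.

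Leaving out 1 library at a time gave 3103 to 5585 strain calls in the light with BV (2443 to 4789 higher, 515 to 796 lower). Against light without BV it gave 341 to 712 (37 to 248 more positive, 276 to 493 more negative), and against dark with BV 2049 to 3632 (1003 to 2483, 811 to 1329).

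Same-numbered libraries of the strains in the light with BV did not deviate together (r = 0.06 for replicate 1 minus replicate 2), so the numbers were not taken as pairs. With a replicate block the counts were 6438 in the light with BV (5419 higher, 1019 lower), 965 against light without BV (300 and 665) and 4330 against dark with BV (2916 and 1414).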
